A study of Mus musculus with 2 samples.

Results

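Members of the tumour necrosis factor (TNF) superfamily were taken as the genes whose symbol is Tnfsf or Tnfrsf followed by a digit, together with Tnf, Lta, Ltb, Ltbr, Cd40, Cd40lg, Cd27, Cd70, Fas, Fasl, Eda2r and Ngfr, where a probe set was assigned to that gene alone. This gave 41 of the 19938 genes measured, 15 ligands and 26 receptors, each with 1 probe set. The series holds 2 Affymetrix arrays of mouse lamina propria macrophages, which the submitters isolated by flow cytometry as cells that carried CD45, the MHC class II protein IAb, CD11b and the macrophage antigen encoded by Adgre1 and that lacked CD103. The control array held RNA of mice that drank water and the DSS array RNA of mice given 3% (wt/vol) dextran sulfate sodium, a sulfated sugar polymer used to induce colitis by damaging the epithelium, both for 5 days. The comparison asks how sorted colonic macrophages of mice given DSS differ from those of untreated mice. Strain, age, sex and the number of mice behind each array are not given in the labels.

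TNF superfamily ligands are cytokines made mostly as membrane proteins that assemble into trimers and can be shed from the cell surface. Their receptors either carry a death domain, which can couple them to caspase-8, or bind TRAF adaptors and signal to NF-kB and MAP kinases, and some members act as decoys that take up ligand without signalling. In the gut, macrophages make TNF, which is a target of therapy in inflammatory bowel disease, and they exchange co-stimulatory signals of this family with lymphocytes.

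Of the 41 genes, 30 had signals within 0.5 (log2) of each other on both arrays, 6 differed by 0.5 to 1 and 5 differed by at least 2-fold, which is a log2 difference of 1. The death receptor gene Fas was higher in DSS by 4.11-fold, the ligand gene Tnfsf4 by 2.78-fold, the receptor gene Tnfrsf26 by 2.28-fold and the ligand gene Tnfsf14 by 2.07-fold. The receptor gene Tnfrsf17 was lower in DSS by 2.25-fold. The signals of Tnf itself lay within 0.03 of each other, and those of its receptor genes Tnfrsf1a and Tnfrsf1b differed by 0.08 and 0.43.

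Values are log2 RMA signals, the authors' normalised brightness of a probe set, and each difference is DSS minus control. There was 1 array per group, so no difference carries a replicate error and no test could be made. The array median over probe sets with a listed gene was 5.90 in control and 5.79 in DSS. A gene passed the signal rule when it reached that median on at least 1 array, which 10397 genes and 28 of the 41 members did. The median is not a detection limit, and with no detection calls a signal below it cannot be told from background or called absent. Levels of different probe sets are not comparable with each other, so each gene is compared with itself and with these medians.

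Among all 41 members, 4 were at least 2-fold higher in DSS and 1 was at least 2-fold lower, where 3.97% of all 19938 genes differed by 2-fold in either direction (2.25% higher and 1.72% lower). Of the 28 members past the signal rule the same 5 differed, against 7.48% of the genes past it (4.25% higher and 3.23% lower). That rule admits a gene through the array on which it is brighter, and 9 of the 28 passed on 1 array only. Of the 19 members at or above the median on both arrays, 2 differed by 2-fold, Fas and Tnfsf14, against 6.04% of such genes (3.31% higher and 2.72% lower). At a size of 3-fold, Fas alone was counted among the 28, against 2.90% of genes (1.76% higher and 1.13% lower). At 1.5-fold, 6 were counted, 5 higher and 1 lower, against 19.6% (10.4% higher and 9.15% lower), so the share of members past the smaller size was near that of all genes. The median difference was 0.00 over all 41 members and 0.02 over the 28, beside -0.06 over all measured genes and -0.02 over all genes past the rule. The middle 95% of differences over all genes past the rule ran from -1.13 to 1.34, and of the members only Fas, Tnfsf4 and Tnfrsf17 lay outside that range.

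**Figure D1:**
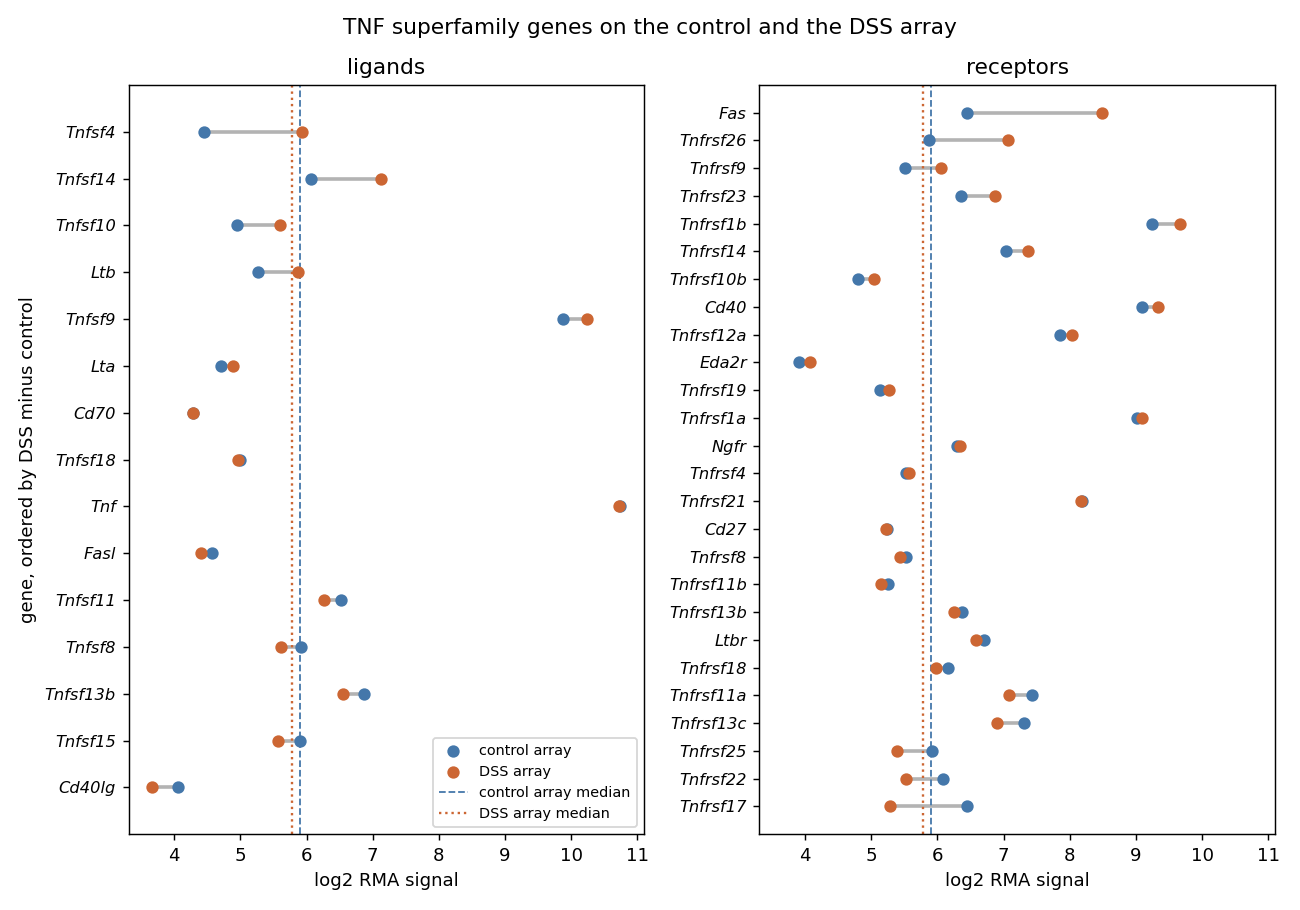
Log2 RMA signal of each TNF superfamily gene on the control array (blue) and the DSS array (orange), 15 ligands left and 26 receptors right, ordered by DSS minus control, with the median of each array as a vertical line. Fas has the widest gap, from 6.45 to 8.49, and the points of Tnf overlap at 10.74 and 10.72.

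Fas encodes the death receptor that binds Fas ligand and can start caspase-8 driven apoptosis. Its probe set read 6.45 in control and 8.49 in DSS, both above the array medians. The difference of 2.04 was the 120th highest among the 10397 genes past the signal rule. Under median and loess centring of the arrays it was 2.15 and 2.06. Fasl, the gene of its ligand, read 4.57 in control and 4.41 in DSS, below the median of both arrays. A Fas ligand signal in these sorted cells could therefore be neither told from background nor called absent.

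The promoter windows of Fas, Tnfsf14, Tnfrsf17 and Tnf are printed because the first 3 differed by 2-fold and Tnf did not. Each is the 250 bases before the RefSeq start of the gene on build GRCm38.p6, on the strand of the gene. Capitals mark matches, on either strand, to the AP-1 motif TGANTCA, the STAT motif TTCNNNGAA, the interferon response motif ISRE or the NF-kB consensus.
Fas, chr19:34290409-34290658, plus strand: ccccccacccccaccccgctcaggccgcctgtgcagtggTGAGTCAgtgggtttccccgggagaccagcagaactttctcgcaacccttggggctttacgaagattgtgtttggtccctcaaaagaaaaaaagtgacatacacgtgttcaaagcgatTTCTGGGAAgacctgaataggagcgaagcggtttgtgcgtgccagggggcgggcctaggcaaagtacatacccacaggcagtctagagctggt
Tnfsf14, chr17:57194182-57194431, minus strand: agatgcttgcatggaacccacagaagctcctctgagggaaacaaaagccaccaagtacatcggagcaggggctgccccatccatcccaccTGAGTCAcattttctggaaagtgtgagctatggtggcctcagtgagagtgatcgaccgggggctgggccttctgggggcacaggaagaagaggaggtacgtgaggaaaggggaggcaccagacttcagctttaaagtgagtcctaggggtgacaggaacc
Tnfrsf17, chr16:11313559-11313808, plus strand: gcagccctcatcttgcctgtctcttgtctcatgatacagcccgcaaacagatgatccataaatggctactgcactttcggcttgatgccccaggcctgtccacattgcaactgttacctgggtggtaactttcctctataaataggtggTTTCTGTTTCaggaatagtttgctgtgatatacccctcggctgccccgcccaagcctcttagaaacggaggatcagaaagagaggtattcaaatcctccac
Tnf, chr17:35202008-35202257, minus strand: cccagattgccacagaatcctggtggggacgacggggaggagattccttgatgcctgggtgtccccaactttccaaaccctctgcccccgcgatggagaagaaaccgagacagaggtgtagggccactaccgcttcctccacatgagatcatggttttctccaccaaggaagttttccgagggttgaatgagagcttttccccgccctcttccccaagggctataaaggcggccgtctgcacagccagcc

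The Fas window held an AP-1 match that began 211 bases before the start and a STAT match that began 93 bases before it. The Tnfsf14 window held an AP-1 match at 160 bases, and the Tnfrsf17 window an ISRE match at 101 bases on the opposite strand. None of the 4 motifs was found in these letters of the Tnf window, and matches in the printed windows did not overlap. RefSeq windows were matched for 32 of the 41 members, 36 windows in all, and Tnfsf4 and Tnfrsf26 were not among the 32. The AP-1 motif occurred in 5 of the 36, those of Fas, Tnfsf14, Tnfsf13b, Tnfrsf8 and Tnfrsf9, against 6.75% of the 32851 windows of all genes. The STAT motif occurred in 8 against 7.02%, those of Fas, Lta, Ltb, Tnfrsf18, Tnfrsf1a, Tnfrsf1b, Tnfrsf25 and Tnfrsf9. ISRE occurred in 4 against 2.98%, those of Tnfrsf14, Tnfrsf17, Tnfrsf1b and Tnfsf13b. The NF-kB consensus occurred in 4 against 7.25%, those of Ltb, Tnfrsf25, Tnfrsf8 and Tnfrsf9. Apart from Fas, Tnfsf14 and Tnfrsf17, every gene with a match differed by less than 2-fold. A match describes the letters of a window and does not show binding.

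Among the ligands, 2 of 15 were at least 2-fold higher in DSS and 0 were lower. Over all measured genes these shares were 2.25% and 1.72%, and 15 genes are too few to compare with them. Tnfsf4 encodes OX40 ligand, which co-stimulates T cells through OX40. It read 4.45 in control and 5.93 in DSS. Only the DSS value lay above its array's median, so the control level could not be told from background and the 2.78-fold is not exact. Tnfrsf4, the gene of OX40, read 5.53 and 5.57, below both medians.

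Tnfsf14 encodes LIGHT, a ligand of HVEM and of the lymphotoxin beta receptor. It read 6.07 in control and 7.13 in DSS, above the median on both arrays, and its difference of 1.05 lay just past the 2-fold size. Its receptor genes differed by less. Tnfrsf14, which encodes HVEM, read 7.04 and 7.37, and Ltbr read 6.71 and 6.58.

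Tnf read 10.74 in control and 10.72 in DSS, a difference of -0.03 with no settled direction, since its sign turned under median centring. Tnfsf9, the gene of 4-1BB ligand, a co-stimulator of T cells, was likewise well above the median of both arrays, at 9.87 and 10.24. Both genes thus had a clear signal in the sorted cells of untreated mice that differed by less than 1.5-fold on the DSS array. Tnfrsf9, which encodes 4-1BB, read 5.52 in control and 6.06 in DSS and was above the median in DSS alone.

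The other ligands past the signal rule were lower in DSS by small amounts, apart from Ltb. Tnfsf13b, which encodes the B cell survival factor BAFF, read 6.86 in control and 6.56 in DSS. Tnfsf11, which encodes RANK ligand, the osteoclast differentiation factor, read 6.52 and 6.27. Tnfsf15, the gene of TL1A, read 5.90 and 5.56, and Tnfsf8, the gene of CD30 ligand, 5.91 and 5.61. These last genes cleared the control median narrowly and were below the median in DSS. Ltb, which encodes lymphotoxin beta, the membrane anchor of the lymphotoxin heterotrimer, read 5.26 and 5.87 and was above the median only in DSS.

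The 6 remaining ligands were below the median of both arrays, with signals of 3.66 to 5.59. Tnfsf10, which encodes TRAIL, an inducer of apoptosis, read 4.95 in control and 5.59 in DSS and had the largest difference of these. Lta, the gene of lymphotoxin alpha, read 4.70 and 4.89, and Cd40lg, the gene of CD40 ligand, 4.06 and 3.66. Tnfsf18, which encodes GITR ligand, read 5.00 and 4.97. Cd70, the gene of the CD27 ligand, was listed at the same value of 4.28 on both arrays, and Fasl is given above. Cd40lg and Fasl, best known from activated T cells, thus had no signal above the median here.

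Tnfsf12 and Tnfsf13, which encode the ligands TWEAK and APRIL, shared 1 probe set with their read-through gene and were not counted as members. That probe set read 8.56 in control and 8.26 in DSS, and the genes behind it cannot be told apart. Tnfrsf12a, the gene of the TWEAK receptor Fn14, read 7.85 and 8.03.

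Among the 6 receptors with a death domain, Fas alone differed by 2-fold. Over all measured genes 3.97% did, and 6 genes are too few to compare with that share. Tnfrsf1a, which encodes the TNF receptor TNFR1, read 9.01 in control and 9.09 in DSS. Tnfrsf21, the gene of death receptor DR6, read 8.18 and 8.16, and its sign turned under median centring. Ngfr, which encodes the p75 neurotrophin receptor, read 6.30 and 6.35. Tnfrsf25, the gene of the TL1A receptor DR3, read 5.91 in control and 5.39 in DSS and was above the median in control alone. Tnfrsf10b, the mouse TRAIL death receptor gene, was below both medians at 4.80 and 5.04. Apart from Fas, the death receptor genes differed by -0.52 to 0.24.

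Of the 16 receptors that bind TRAF adaptors without a death domain, 0 were at least 2-fold higher and 1 was 2-fold lower. Over all measured genes these shares were 2.25% and 1.72%, and 16 genes are too few to compare with them. Tnfrsf17, which encodes BCMA, a receptor of plasma cells for BAFF and APRIL, read 6.44 in control and 5.28 in DSS. Its DSS signal was below the median and could not be told from background, so the 2.25-fold is not exact. The other BAFF receptor genes were lower by less. Tnfrsf13c, which encodes the BAFF receptor, read 7.31 and 6.91, and Tnfrsf13b, which encodes TACI, 6.37 and 6.24. The plasma cell and B cell markers did not share one direction: Jchain read 10.79 and 10.52, Mzb1 6.03 and 6.52, Sdc1 6.15 and 7.45 and Cd79a, below both medians, 5.02 and 4.78. The part of B lineage cells in the Tnfrsf17 signal was not tested.

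Tnfrsf1b, Cd40 and Tnfrsf11a had signals above the medians on both arrays. Tnfrsf1b, the gene of TNFR2, the TNF receptor without a death domain, read 9.24 in control and 9.67 in DSS. Cd40, through which T cells license antigen-presenting cells, read 9.09 and 9.33. Tnfrsf11a, which encodes RANK, the receptor for RANK ligand on myeloid cells, read 7.43 and 7.07, lower in DSS. All 3 lay within 1.5-fold of control. Tnfrsf18, the gene of GITR, read 6.17 and 5.97, close to the medians.

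The other receptor genes of this class, with Tnfrsf4, were below both medians and spanned 3.91 to 5.57. Cd27, a receptor of T and B cells, read 5.24 and 5.23, and Tnfrsf8, the gene of CD30, 5.52 and 5.43. Tnfrsf19, the gene of TROY, read 5.14 and 5.27, and Eda2r, which encodes the ectodysplasin A2 receptor, 3.91 and 4.07.

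Decoy receptors take up ligand without a death signal. Tnfrsf11b, which encodes osteoprotegerin, the soluble decoy for RANK ligand, read 5.26 in control and 5.15 in DSS, below both medians. Tnfrsf22 and Tnfrsf23, the mouse decoy TRAIL receptor genes, differed in opposite directions. Tnfrsf22 read 6.08 in control and 5.52 in DSS, and Tnfrsf23 read 6.36 and 6.87. Tnfrsf26, their neighbour on the chromosome, read 5.88 and 7.07, with a control signal just under the median. These 3 genes are related in sequence, and how far their probes bind transcripts of the other two was not tested.

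**Figure D2:**
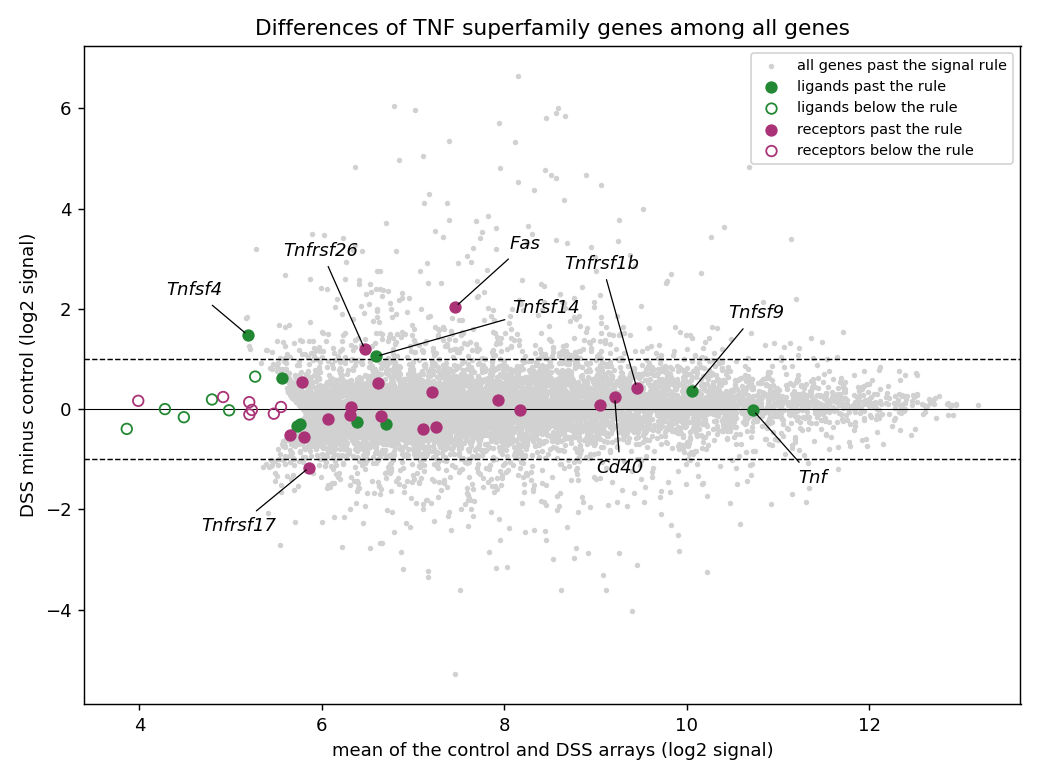
DSS minus control (log2 signal) against the mean signal of both arrays, for all 10397 genes past the signal rule (grey), ligands (green) and receptors (purple), with open circles for members below the rule and dashed lines at the 2-fold size. Most members lie between the lines, Fas lies at 2.04 and Tnfrsf17 at -1.17.

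Many of these genes lie in tandem on the mouse chromosomes. In the RefSeq gene table, 13 pairs of members were next to each other or had 1 coding gene between them, and 21 members took part. Tnfsf4, Tnfsf14 and Tnfrsf26 were each in 1 of the 13 pairs, and Fas and Tnfrsf17 were in none. Since 3.97% of all genes differed by 2-fold, whether neighbours did so together cannot be read from so few pairs. Tnfsf4 differed by 1.48 and its neighbour Tnfsf18 by -0.02, followed by Fasl at -0.16. In the lymphotoxin group, Ltb differed by 0.61, Tnf by -0.03 and Lta by 0.19. Tnfsf9, Cd70 and Tnfsf14, also in a row, differed by 0.37, 0.00 and 1.05. In the receptor row Tnfrsf26, Tnfrsf22 and Tnfrsf23 the differences were 1.19, -0.56 and 0.52.

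Ligands were set beside the receptors they are known to bind, which gave 26 pairs of measured genes. In 7 pairs both genes were at or above the median on both arrays. These 7 were Tnf with Tnfrsf1a and with Tnfrsf1b, Tnfsf14 with Tnfrsf14 and with Ltbr, Tnfsf11 with Tnfrsf11a, and Tnfsf13b with Tnfrsf13b and with Tnfrsf13c. Among these 7, the 3 pairs of BAFF and RANK ligand had lower signals in DSS for ligand and receptor alike. Their differences ran from -0.40 to -0.12, all within 1.5-fold. The BAFF pairs share the value of Tnfsf13b, and the difference of Tnfrsf13b was -0.02 under median and -0.01 under loess centring. Fas, Tnfsf4 and Cd40, all above the median in DSS, each had a partner below both medians.

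**Figure D3:**
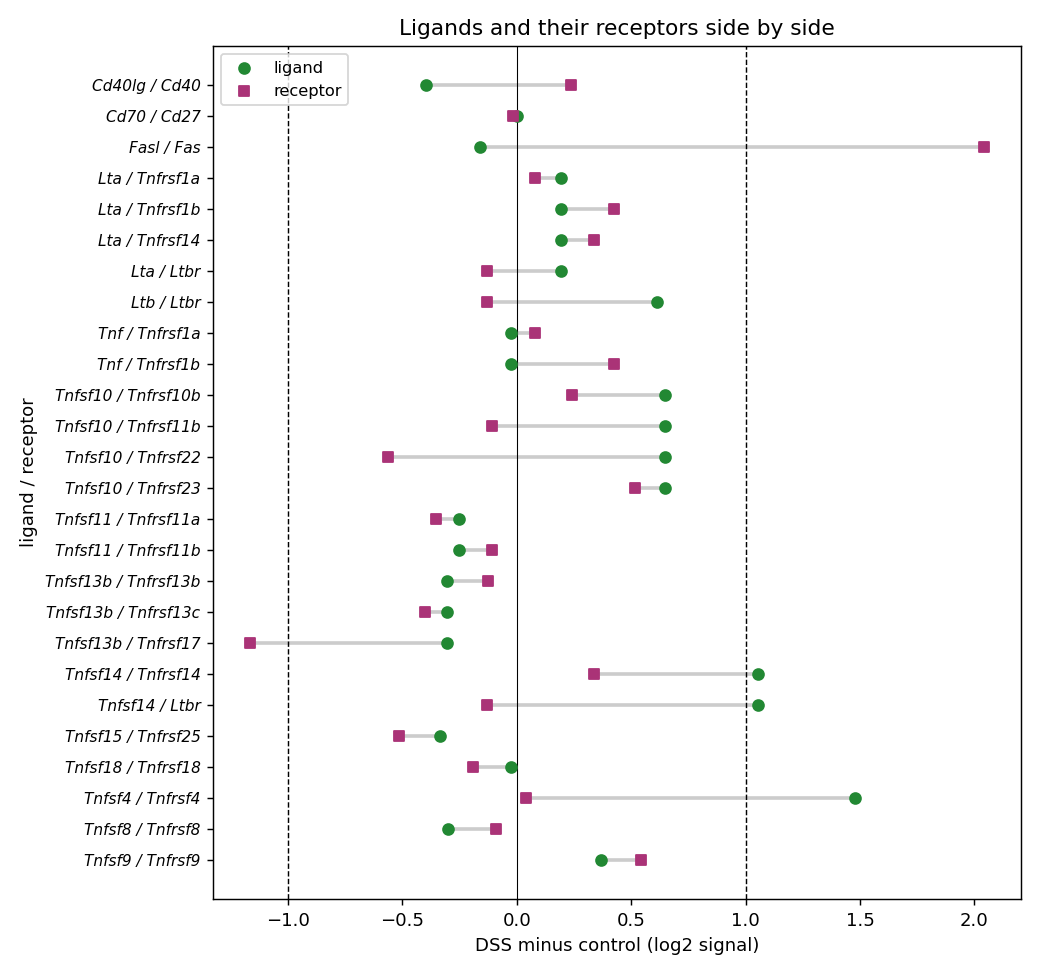
DSS minus control (log2 signal) of each ligand (green circle) and of a receptor it binds (purple square) for the 26 pairs, with dashed lines at the 2-fold size. The squares of Fas (2.04) and Tnfrsf17 (-1.17) and the circles of Tnfsf4 (1.48) and Tnfsf14 (1.05) lie past the lines, each beside a partner between them.

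Genes that act with these receptors were described by 8 lists, which together held 88 measured genes, 82 of them past the signal rule. Of these, 7 were at least 2-fold higher in DSS and 1 was lower, or 9.76% against 7.48% of all genes past the rule. Their median difference was 0.16 against -0.02. The counts of each list below stand beside the same shares over all genes past the rule, 4.25% higher and 3.23% lower. Each list is too short for its count to be set apart from them. The TRAF list had 2 of 10 genes higher, 0 lower and a median of 0.35. Traf3ip3, which encodes a TRAF3-interacting protein, read 5.77 in control, below the median, and 7.18 in DSS, and Tifa, the gene of a TRAF-binding adaptor, 8.09 and 9.25. The TRAF genes themselves lay within 2-fold, with Traf1 at 7.77 and 8.22 and Traf6 at 6.88 and 7.44.

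The list of receptor-proximal adaptors, kinases and ubiquitin enzymes had 1 of 17 genes higher, 0 lower and a median of 0.28. Birc2, which encodes the ubiquitin ligase cIAP1, read 8.20 in control and 9.34 in DSS, while Birc3, the gene of cIAP2, read 10.83 and 10.95. Downstream of Fas, the list of caspase-8 and necroptosis genes had 1 of 11 higher, 0 lower and a median of 0.25. The higher one was Mlkl, which encodes the membrane-lysing effector of necroptosis, with signals of 6.65 on the control and 8.42 on the DSS array, a 3.41-fold difference. Fadd, the adaptor of Fas, read 7.16 and 6.78, Casp8 10.39 and 10.58 and Cflar, the caspase-8 inhibitor, 11.81 and 11.76. The high Fas signal thus stood beside adaptor and caspase-8 genes within 1.5-fold of control.

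In the list of canonical NF-kB subunits and inhibitors 0 of 11 genes differed by 2-fold, against 7.48% of all genes past the rule. The count cannot be told from that background, and the median was 0.12. Ikbkb, a kinase gene of the receptor-proximal list, read 7.16 and 8.14, a difference of 0.97 just short of 2-fold. Nfkbie, which encodes an inhibitor of NF-kB, read 8.16 and 8.74, and Tnip3, the gene of an A20-binding protein, 9.17 and 8.64. Tnfaip3, the gene of A20, which limits TNF signalling, read 11.09 and 11.28. The noncanonical list, the route of the lymphotoxin beta, BAFF and CD40 receptors, had 1 of 6 genes higher, Birc2, and a median of 0.07. Map3k14, which encodes its kinase NIK, read 7.10 and 7.11, Relb 6.90 and 6.75 and Nfkb2 7.74 and 7.83.

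Genes named for TNF had 1 of 10 higher, 0 lower and a median of 0.01. Tnfaip6, which encodes a hyaluronan-binding protein induced by TNF, read 5.69 in control, below the median, and 7.80 in DSS. The list of sheddases and membrane handling had 1 of 9 higher, 1 lower and a median of 0.23. Adam8, which encodes a metalloprotease of leukocytes, read 7.36 and 9.50, or 4.41-fold higher, and Smpd1, the acid sphingomyelinase gene, read 7.28 and 6.28, or 2.01-fold lower, a difference that no longer reached 2-fold under median or loess centring. Adam17, the gene of the enzyme that sheds TNF, read 9.86 and 10.03. Among regulators of TNF mRNA 1 of 12 was higher, 0 were lower and the median was 0.03. Tia1, the gene of a translational silencer of TNF mRNA, read 6.61 and 7.83, and Zfp36, whose product destabilises TNF mRNA, 11.04 and 11.05.

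**Figure D4:**
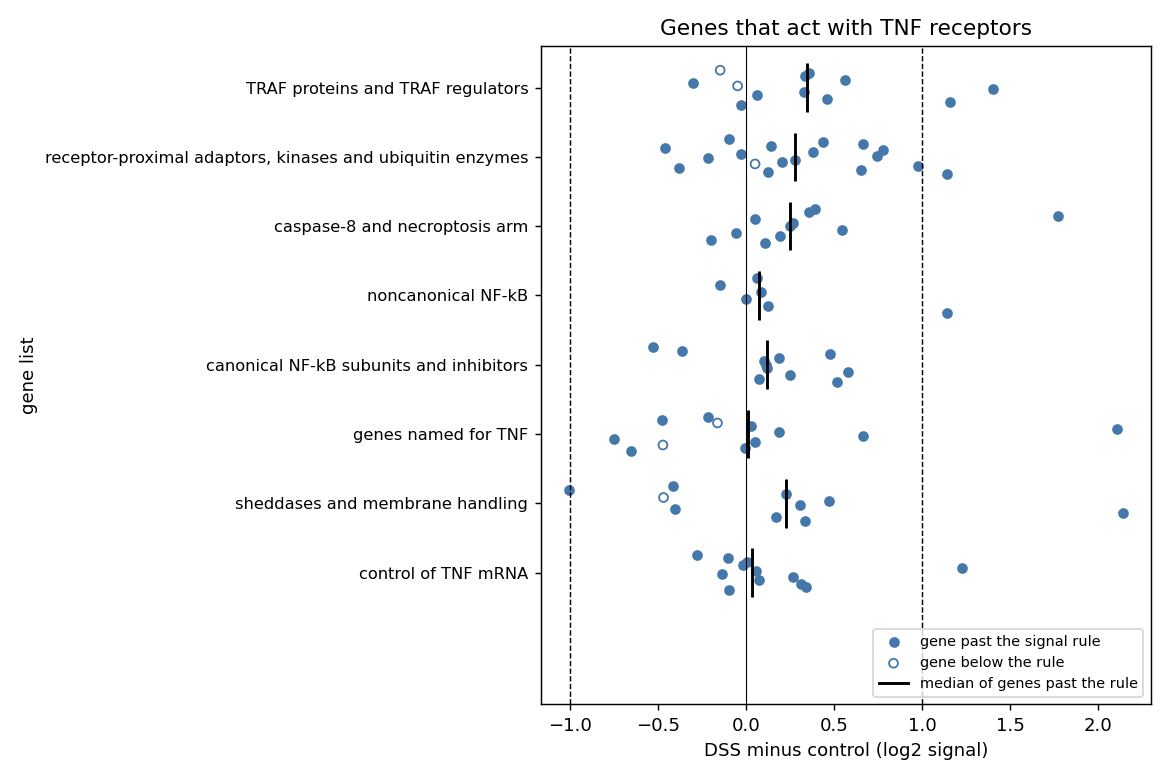
DSS minus control (log2 signal) of genes in the 8 lists that act with TNF receptors, with filled circles for genes past the signal rule, open circles for genes below it, a bar at each list's median and dashed lines at the 2-fold size. The medians run from 0.01 to 0.35, and Tnfaip6 (2.11) and Adam8 (2.14) lie furthest right.

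The arrays also differed in markers of other cells. All 10 neutrophil markers were at least 2-fold higher in DSS, with a median difference of 5.27, and 6 of the 10 were below the median in control, so that these sizes are not exact. Sums of linear signals are given per list as a description of each array, not as amounts of RNA, since probe sets differ in brightness and dim ones add background. The neutrophil sum was 1747 in control and 32523 in DSS. Mmp8, the neutrophil collagenase gene, read 4.82 in control and 11.47 in DSS, and Lcn2, the lipocalin gene, 5.58 and 11.59. Of 6 monocyte markers 5 were higher and 1 was lower, with a summed signal of 3845 and 12060, and Chil3 and Hp differed by 5.90 and 4.76, with Chil3 below the median in control. The resident intestinal macrophage markers were at least 2-fold lower in DSS in 7 of 10 genes, with a median of -3.24 and a summed signal of 15547 and 5026, and Vsig4 and Folr2 differed by -5.29 and -3.62. Both were among the 3 genes of that list below the median in DSS, so these differences are not exact. Cx3cr1, C1qa and Mertk of the same list lay within 2-fold, at -0.99, -0.84 and -0.42, and were above both medians. The sort antigen genes Ptprc, H2-Ab1, Itgam and Adgre1 were within 2-fold, at 11.54 and 11.94, 11.99 and 12.13, 9.59 and 10.19, and 11.65 and 10.82, and Itgae, which encodes the excluded CD103, read 4.89 and 4.91. Each TNF superfamily value above stands beside these shifts, whose part in it was not tested, and on bulk arrays fewer cells of a type and less RNA per cell cannot be told apart.

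T and NK cell markers bear on the T cell members of the family. Of the 8 measured, 6 were below both medians, with signals of 3.88 to 5.50, and these included the T cell receptor complex genes Cd3d, Cd3e and Cd3g. The summed signal of the list was 718 and 441 with Cd4, which gut macrophages also express, and 192 and 273 without it. Cd4 read 9.04 and 7.39, and Gzma read 4.69 and 6.37. The B and plasma cell list had 3 of 7 genes below both medians and a summed signal of 2102 and 1940, or 330 and 473 without Jchain. Of these 7 genes, 4 were higher and 3 lower in DSS, with the largest differences in Sdc1 (1.31) and in Ms4a1 (0.76), which was below both medians. The dendritic cell list had 3 of 7 below and 591 and 710, and its Siglech and Ccr7 differed by -1.44 and 0.95. The epithelial list had 3 of 6 below, Epcam, Krt20 and Vil1, and a summed signal of 419 and 1068. Reg3b read 5.03 and 9.32, Cdh1 5.81 and 6.16, and Krt8, the brightest of the list in control, 7.97 and 8.05. All 6 read higher in DSS, but only Reg3b by 2-fold, and most of the rise in the sum lay in Reg3b. The fibroblast and endothelial list had 1 of 6 below and 1363 and 1280, or 554 and 739 without Dcn. Its Pecam1 and Cdh5 were higher, by 0.85 and 0.59, and the other 4 genes were lower, Dcn furthest at -0.58.

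**Figure D5:**
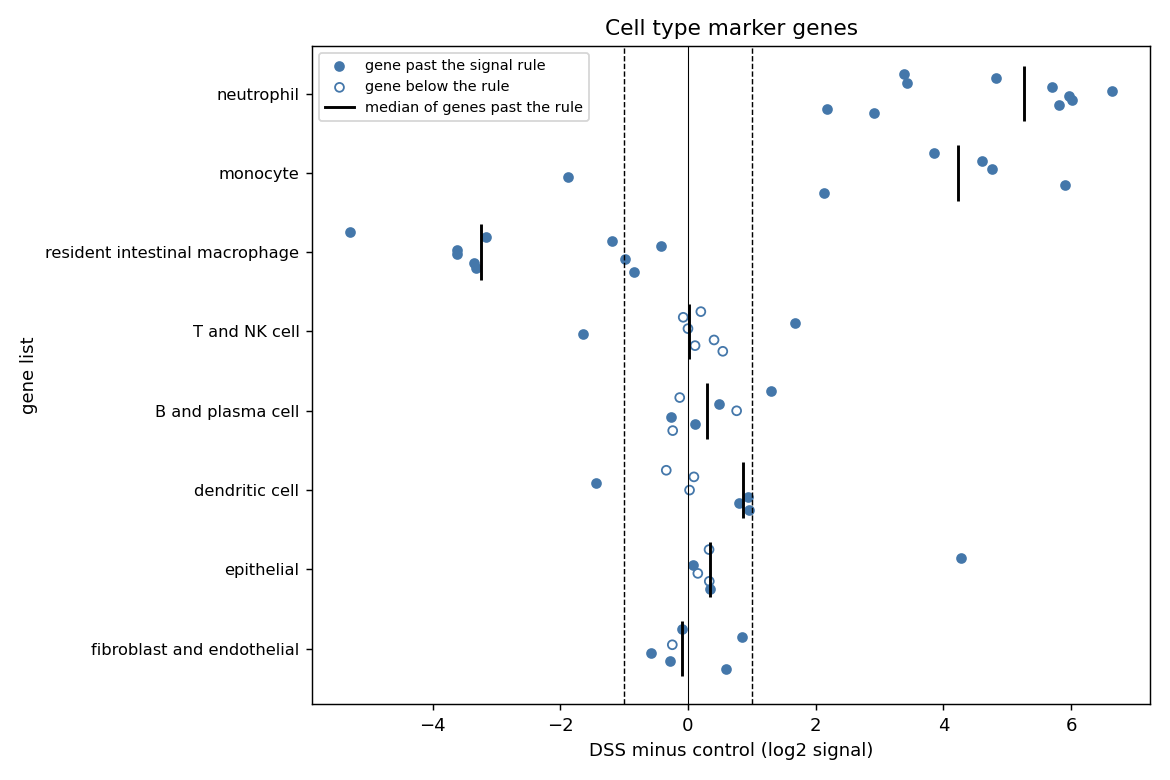
DSS minus control (log2 signal) of the marker genes of 8 cell types, with filled circles for genes past the signal rule, open circles for genes below it, a bar at each list's median and dashed lines at the 2-fold size. The neutrophil median lies at 5.27 and the resident macrophage median at -3.24, beyond any TNF superfamily gene.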

How the data were processed

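The deposited values were log2 signals of 35556 probe sets on each of 2 arrays. The submitters' processing notes give RMA as the method, which corrects background, normalises between arrays and summarises probes. Its version and settings, and the genome build, are not stated in the sources at hand. Per the labels, 100 ng of total RNA was amplified and labelled with biotin. The files hold no detection calls, and scan or hybridisation batch cannot be told apart from treatment. The number of arrays limits the precision.

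Genes were named from the platform annotation, in which 21789 probe sets have 1 symbol and 1621 several. All 41 members matched RefSeq (GRCm38.p6) by Entrez identifier. A gene took its probe set of highest mean signal. The size for a count was 2-fold, in place of a test. As a yardstick for medians, differences of probe sets within a gene had a pooled SD of 0.28 over 613 genes with at least 2, a measure of probe noise alone. The robust SD of differences over the 10397 genes past the signal rule was 0.40.

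The members and lists were chosen with earlier results of these data known. Named genes were all members, up to 4 per pathway list at 2-fold or with the largest differences, and 2 or more per marker list. Fadd, Casp8, Cflar, Birc3, Traf1, Traf6, Ikbkb, Tnfaip3, Map3k14, Relb, Nfkb2, Adam17 and Zfp36 were named for their roles and chosen after their values were seen. Of 166 list entries, 14 had no probe set of their own. Marker sums without a list's brightest control gene were added after seeing the data. Alternatives covered scaling, probe set, floor, signal rule and size. The steps were tested on simulated data, in which genes above the control median were shifted by well over 2-fold. That test does not bear on differences near 2-fold. Python 3.11.15, numpy 2.4.6, pandas 2.3.3, statsmodels 0.14.6 and matplotlib 3.10.9 were used.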

Additional observations from a re-analysis of the deposited data

How the results depend on the processing

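Under median centring, loess centring and raising dim values to the 25th percentile, the 41 members kept their side of the 2-fold size. No difference past that size changed sign. The median over probe sets could change no member, since each member has 1 probe set. Median centring raised the median of all genes past the signal rule by 0.11, and the signs of Tnf, Tnfrsf21, Cd27, Tnfrsf11b, Tnfrsf8 and Tnfsf18 turned under it or under loess centring, while Cd70, listed at a difference of 0, took a positive value under both. The medians of the members, ligands and receptors were 0.02, -0.03 and 0.05. They were 0.12, 0.08 and 0.16 under median centring and -0.002, -0.14 and 0.002 under loess centring. The sign thus turned for the ligands under median centring and for the members under loess centring. All shifts were below the probe set yardstick. Median centring adds the same amount to every difference, so its shift does not test these medians. Asking for the median on both arrays left 2 members at 2-fold (2 higher, 0 lower) and 16 marker genes, 9 of them higher. At 3-fold, 1 member was counted (1 higher, 0 lower) and 3 pathway genes (3 higher, 0 lower). At 1.5-fold, 16 pathway genes were counted, 13 higher and 3 lower. Under both centrings the lower pathway count was 0, since Smpd1 no longer reached 2-fold. The higher pathway count was 8 under median centring and 7 under loess centring. An array median over more probe sets, chosen after seeing the data, moved none of these counts by over 1.5 times. No paired analysis was possible because each group has 1 array, and no array could be left out. Values below the array median limit the folds of Tnfsf4, Tnfrsf26 and Tnfrsf17.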

Other observations

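The same log2 value was listed on both arrays for 309 of the 19938 genes, Cd70 among them. The deposited table does not show how these ties arose, and a difference of exactly 0 for Cd70 was therefore not read as a measured equality.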
